A study of Homo sapiens with 48 samples.

Results

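The subject is how the transcriptional response to proteasome inhibition differed between RKO and DLD-1, both human colon cancer cell lines, and what the lines shared. Its members are all genes tested for the contrast of carfilzomib over DMSO in RKO minus carfilzomib over DMSO in DLD-1, and it rests on 12 of the 48 libraries of the series. The series holds 8 cancer cell lines, each given carfilzomib for 24 h at the concentration that inhibits proteasome activity by 50% in that line, or the solvent DMSO. The groups used here are RKO with DMSO, RKO with carfilzomib, DLD-1 with DMSO and DLD-1 with carfilzomib, all grown in dishes, with 3 biological replicates each. The concentrations were not used here. As each line received its own, the line and the drug concentration cannot be told apart.

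The proteasome is the protease complex that destroys proteins tagged with ubiquitin. It consists of a 20S core, whose beta subunits carry the active sites, and 19S caps that recognise, unfold and feed in the substrate. Carfilzomib binds the active site of PSMB5 irreversibly. In many cells a partial block releases the transcription factor NFE2L1, which raises the genes of all subunits through antioxidant response elements, while HSF1 raises chaperones through heat shock elements and ATF4 raises amino acid metabolism genes in the integrated stress response.

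Library totals were 12.6 to 22.6 M counts in RKO and 24.4 to 48.9 M in DLD-1, so the RKO values have the larger counting error. DMSO replicate 3 of DLD-1 stood apart from its group, with a chi-square of the counts over its degrees of freedom of 14 and 10.7 against replicates 1 and 2, where all other replicate pairs had 4.1 to 6.37. Without it 502 differences above 0 and 490 below were called. Levels are given in CPM, the count of a gene divided by the TMM-scaled total of its library in M. Of 14 colon epithelial markers, KRT20, LGALS4 and MUC2 had several rows that share an identifier and were left out. Over the other 11 the sum was 163 to 187 CPM in RKO and 8986 to 11587 CPM in DLD-1. KRT19, HNF4A and CDX1 had no counts in any RKO library, and CDH1, the adhesion protein of epithelia, reached at most 0.0709 CPM. In RKO 7 of these 11 were under 1 CPM in every library, while CDX2, an intestinal transcription factor, was present at 21.1 to 23.8 CPM. Most of the 11 markers of the labelled tissue were thus at or near 0 in RKO, and the 3 left out were not examined. Of 8 mesenchymal genes with a row, 5 were under 1 CPM in every RKO library and 5 in every DLD-1 library. ZEB1, a repressor of epithelial genes, stood at 789 to 877 CPM in RKO and at 0.403 to 1.33 CPM in DLD-1, and VIM was also higher in RKO, whereas FN1, CDH2 and SPARC were lower in RKO than in DLD-1. Of 6 immune markers, PTPRC had several rows and was left out. Among the remaining 5, CD68 stood at 800.4 to 1029 CPM in RKO. The other 4 were under 1 CPM in both lines.

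Of 17445 genes tested by edgeR (quasi-likelihood F statistic), 1046 had a response that differed between the lines at a Benjamini-Hochberg adjusted p under 0.05, which is 6.0% of the genes tested. A positive difference means a higher response in RKO. It was found for 530 genes (3.04%), and a negative difference for 516 (2.96%). The median absolute log2 difference of the called genes was 0.43, and 132 of them differed by at least 1 on the log2 scale. Against a null difference of 1.5-fold in place of none, 25 genes were called. Among those named here they were CHAC1, DDIT4, CEMIP, FTL, BLVRB, ATG9B, ITGAX, CD68, F3, NDRG1 and TUBB4B. The counts depended on single libraries. Without carfilzomib replicate 1 of DLD-1 they were 266 above and 343 below 0, and without carfilzomib replicate 3 of DLD-1 they were 288 and 330.

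The called differences came from several patterns. Of the 530 above 0, 315 were called lower in DLD-1 and not in RKO, 132 were called higher in RKO and not in DLD-1, and 32 were called in opposite directions. Of the 516 below 0, 340 were called higher in DLD-1 and not in RKO, 72 were called lower in RKO and not in DLD-1, and 23 were called in opposite directions. The remaining genes were called in the same direction in both lines or in neither. Across all genes the log2 responses of the lines had a Pearson r of 0.05 and a Spearman rho of 0.19, and 0.13 and 0.29 over the 13016 genes whose mean count was 50 or more. These are descriptions across genes, which are not independent replicates.

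**Figure D1:**
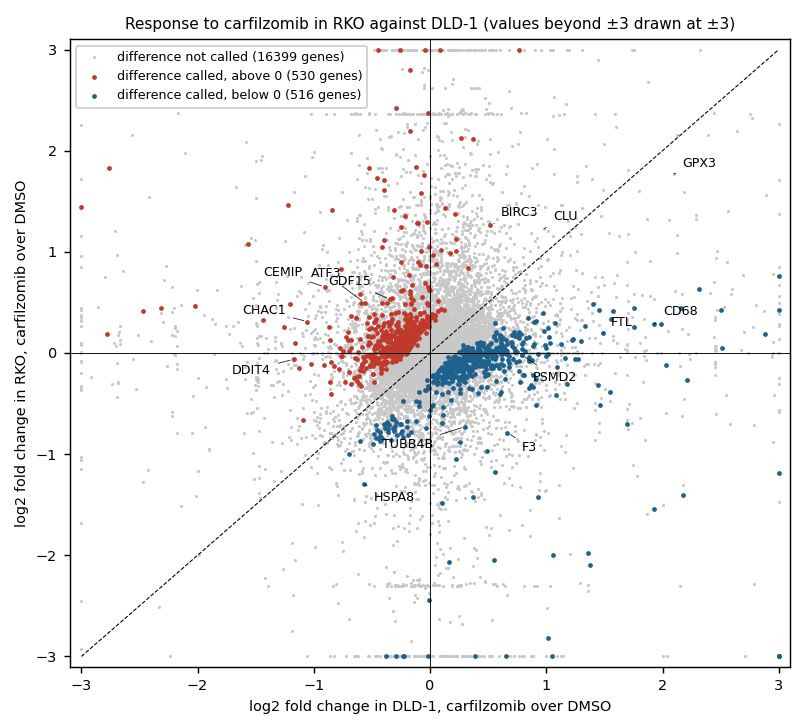
Log2 fold change after carfilzomib in RKO (vertical) against that in DLD-1 (horizontal), 1 point for each of the 17445 genes, with values beyond 3 drawn at the edge. Red points (530) have a called difference above 0 and blue points (516) one below 0, and the dashed line marks equal responses. The blue points lie mostly to the right, near 0 in RKO, and the red points mostly to the left of the vertical line.

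Single-line calls give the scale of each response. The shares over all genes are those to set beside the counts in each gene list below, which were not tested against them. In RKO 707 genes were called higher (4.05%) and 913 lower (5.23%) after carfilzomib, against 1348 higher (7.73%) and 1917 lower (11%) in DLD-1. The RKO counts fell to 355 and 511 without its carfilzomib replicate 3, and the higher count to 468 without its DMSO replicate 3. At least a 2-fold change was called for 123 higher and 50 lower genes in RKO and for 151 and 57 in DLD-1. The share of higher among called genes was 43.6% in RKO and 41.3% in DLD-1, and 62.6% and 58.2% when libraries were scaled by their totals alone.

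The proteasome itself showed the broadest split. All 33 tested subunits of the core and the caps had responses between -0.23 and 0.21 in RKO (median log2 fold change -0.02), whereas 30 of them rose in DLD-1 (median 0.49, called range 0.21 to 0.89). For the same 30 the difference between lines was called below 0, with a median over the 33 of -0.56 against 0.02 over all genes tested. The summed level of the 33 genes was 4028 to 4203 CPM in RKO with DMSO and 3898 to 4160 CPM with carfilzomib, so the RKO groups overlapped. In DLD-1 it was 4902 to 4977 CPM with DMSO and 6915 to 7408 CPM with carfilzomib, with no overlap. The 30 differences remained 30 without any 1 library, and none passed against the 1.5-fold null.

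Every part of the complex took part. In DLD-1 all 7 tested alpha subunits rose (median 0.46), as did all 6 beta subunits (0.75), all 5 ATPases of the cap (0.47) and 12 of the 15 other cap subunits (0.49). The 3 exceptions were PSMD5, PSMD9 and PSMD10, which are known as assembly chaperones of the cap and not as parts of the finished particle. Their log2 responses were 0.06, 0.17 and -0.09 in RKO and -0.05, 0.08 and -0.04 in DLD-1.

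PSMD2 is a large scaffold subunit of the cap (ENSG00000175166, chr3:184298709-184309054, plus strand, GRCh38). Its level in RKO was 709.8, 767 and 793 CPM with DMSO and 711, 778 and 745 CPM with carfilzomib. In DLD-1 it was 197, 191 and 198 CPM with DMSO and 335, 320.0 and 359.8 CPM with carfilzomib. The treated DLD-1 libraries all lay above their controls, and both RKO groups lay above every DLD-1 library. The log2 difference between the responses was -0.82 (SE 0.07, adjusted p = 1.6e-05).

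PSMD13, another cap subunit, rose in DLD-1 from 192, 200.2 and 185 CPM to 359, 342 and 371 CPM (log2 fold change 0.89), with 0.08 in RKO. PSMB5, the beta subunit that carfilzomib binds, stood in RKO at 61.4, 67.5 and 70.7 CPM with DMSO and 68.6, 70.9 and 70.9 CPM with carfilzomib. In DLD-1 PSMB5 rose from 116, 112 and 118 CPM to 156, 151 and 168 CPM. Its difference of -0.39 (SE 0.08, adjusted p = 0.0090) was among the smaller ones of the complex. In RKO 3 subunits were called at all: PSMB4 rose by 0.21, PSMC3 fell by 0.23 and PSMD12 fell by 0.20 on the log2 scale. These RKO calls were weakly held, since between 0 and 1 higher and between 0 and 3 lower subunits were called when each library was left out in turn.

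**Figure D2:**
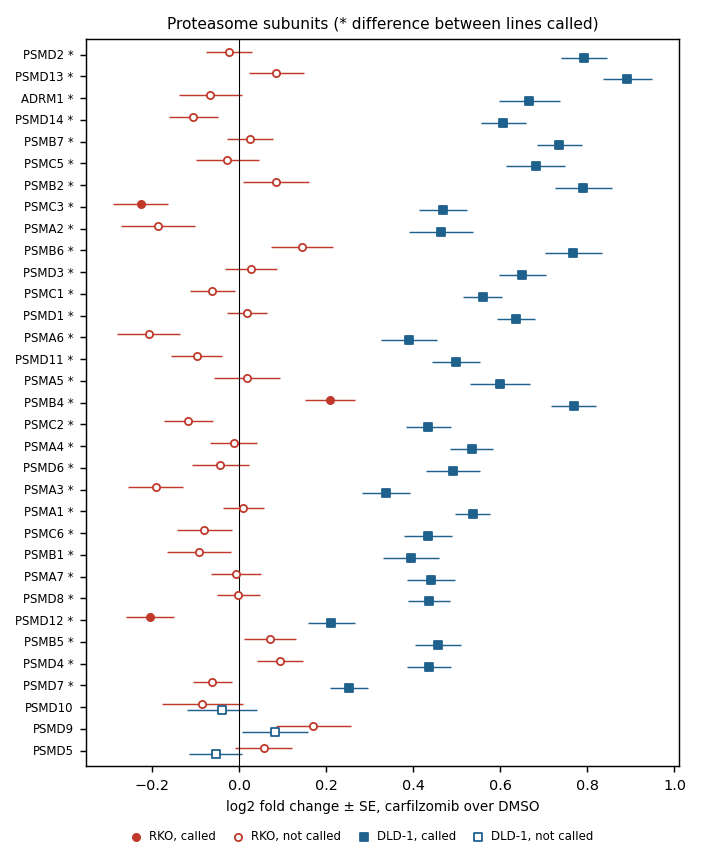
Log2 fold change after carfilzomib with its standard error for the 33 tested proteasome subunits in RKO (circles) and DLD-1 (squares), filled where called, with an asterisk where the difference between lines was called. DLD-1 squares lie between 0.21 and 0.89 for the 30 called subunits, and the RKO circles lie between -0.23 and 0.21.

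Antioxidant response elements in proteasome promoters are shown because this is the sequence that NFE2L1 is known to bind. The motif TGACNNNGC was searched on both strands in the RefSeq promoter windows of GRCh38.p14, which run from 250 bases before to 50 after each gene's start. It was found in 6 of the 28 subunit promoters with an entry (21.4%) and in 13.6% of all 27305 promoters. Larger shares were found for the integrated stress response (6 of 17, 35.3%), chaperones (7 of 20), p53 targets (6 of 21, 28.6%) and antioxidant genes (4 of 14). Smaller shares were found for transfer RNA synthetases (3 of 15) and mitosis genes (4 of 21). The motif was thus not particular to proteasome promoters. Below, capitals mark the match and each line is in the orientation of its gene: ADRM1 at chr20:62302743-62302783, plus strand, PSMD12 at chr17:67366718-67366758, minus strand, PSMD3 at chr17:39980754-39980794, plus strand, and PSMD5 at chr9:120843032-120843072, minus strand.
ADRM1: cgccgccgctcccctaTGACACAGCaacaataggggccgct
PSMD12: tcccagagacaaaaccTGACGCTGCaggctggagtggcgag
PSMD3: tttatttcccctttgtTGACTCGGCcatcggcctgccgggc
PSMD5: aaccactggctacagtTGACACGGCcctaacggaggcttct
ADRM1, the ubiquitin receptor of the cap, had a log2 response of -0.07 in RKO and 0.67 in DLD-1, and PSMD3 had 0.03 and 0.65. PSMD12 had -0.20 and 0.21. PSMD5 and PSMD9 both hold the motif and were called in neither line. Whether the match bears on the response was not tested. NFE2L1 RNA itself had a log2 response of -0.04 in RKO and -0.11 in DLD-1, not called in either.

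Of 22 genes that assemble, regulate or supply the proteasome, 7 had a called difference below 0 and 2 one above 0. POMP, the chaperone that matures the core, rose by 0.71 in DLD-1 with 0.07 in RKO. The segregase VCP, which pulls ubiquitin-tagged proteins out of membranes and complexes, rose by 0.61 in DLD-1 with 0.10 in RKO. Its cofactors UFD1 (0.82 in DLD-1, 0.02 in RKO), NPLOC4 (0.57 and -0.12) and NSFL1C (0.57 and -0.03) followed the same pattern. UFD1 stood at 60.5, 58.4 and 58.9 CPM in control DLD-1 and at 109.9, 96.9 and 107 CPM after the drug, and at 43.8 to 51.3 CPM in all 6 RKO libraries. The proteasome activator PSME4 and the assembly chaperone PSMG3 completed the 7, with differences of -0.41 and -0.33. The PSMG3 call was lost without any of 11 of the 12 libraries (adjusted p 0.058 to 0.11).

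UBB, a polyubiquitin gene, went the other way. It fell by 0.66 in RKO and by 1.09 in DLD-1, a difference of 0.43 (adjusted p = 0.012).

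Genes of the integrated stress response had a more negative response in DLD-1. Of 20 tested genes of this pathway, 18 fell in DLD-1 and none rose (median log2 fold change -0.62), while in RKO 6 fell and 1, ATF3, rose (median -0.16). The difference was called above 0 for 12 genes and below 0 for none, with a median of 0.41, and 18 of the 20 differences were above 0. The summed level went from 4931 to 5157 CPM in control DLD-1 down to 3088 to 3406 CPM after the drug, and from 2867 to 2967 CPM in control RKO down to 2542 to 2641 CPM. The groups did not overlap in either line, and the level was higher in DLD-1 than in RKO both before and after the drug. Leaving out each library in turn gave 9 to 11 called differences, and 2 of the 12 (CHAC1 and DDIT4) passed against the 1.5-fold null. The count of genes that fell in RKO was 3 in place of 6 without its DMSO replicate 3 or its carfilzomib replicate 3. The count that rose in RKO was 0 without any of 11 libraries and 2 without its DMSO replicate 1.

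CHAC1 degrades glutathione (ENSG00000128965, chr15:40952962-40956519, plus strand, GRCh38). Its level in DLD-1 fell from 65.9, 63.7 and 70.4 CPM to 29.7, 35.3 and 31.1 CPM. In RKO it was 18.6, 13.2 and 15.6 CPM with DMSO and 20.3, 18.8 and 19.6 CPM with carfilzomib, which did not pass the test there (log2 fold change 0.31, adjusted p = 0.091). The treated RKO libraries all lay above their controls, and the difference between the lines was 1.37 (SE 0.14, adjusted p = 4.2e-05).

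DDIT4, an inhibitor of the growth kinase mTORC1, stood at 409, 393 and 378 CPM in control DLD-1 and at 168, 189.9 and 164 CPM after the drug. All 6 RKO libraries lay between 19.5 and 21.3 CPM, and the difference was 1.11 (SE 0.10, adjusted p = 8.8e-06). An antisense transcript overlaps 41.2% of DDIT4, and the use of strand in counting is not given in the sources used here. PSAT1, an enzyme of serine synthesis, fell in DLD-1 from 398, 379.7 and 453 CPM to 186, 212 and 205 CPM (log2 fold change -1.03) with -0.11 in RKO. MTHFD2, a mitochondrial folate enzyme with 27.2% antisense overlap, had -0.83 in DLD-1 and -0.13 in RKO. ATF4, the transcription factor of the pathway, fell in both lines, by 0.58 in DLD-1 and 0.18 in RKO, and the difference of 0.40 was called (adjusted p = 0.0036). DDIT3, which encodes the factor CHOP, fell by 0.70 in DLD-1 with -0.19 in RKO. Not every member separated the lines. TRIB3 fell by 0.40 in RKO and 0.49 in DLD-1, and PHGDH, the first enzyme of serine synthesis, fell by 0.56 and 0.65.

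Enzymes that load amino acids onto transfer RNAs, many of them known ATF4 targets, moved in the same direction. Of 18 tested cytosolic synthetases, 12 fell and 2 rose in DLD-1 (median -0.28), and 3 fell in RKO. Differences above 0 were called for 8, namely GARS1, TARS1, YARS1, MARS1, NARS1, AARS1, QARS1 and LARS1, and below 0 for WARS1. GARS1, the glycine enzyme, stood between 385 and 411 CPM in all 6 RKO libraries. In DLD-1 GARS1 fell from 409, 404 and 439 CPM to 255, 277 and 269 CPM, and the difference was 0.60 (SE 0.06, adjusted p = 4.8e-05). Without carfilzomib replicate 1 of DLD-1 5 of the 8 were called, with AARS1, QARS1 and LARS1 lost (adjusted p 0.0534 and 0.0554 for the first 2). The LARS1 call was lost without any of 7 libraries and the WARS1 call without any of 11.

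**Figure D3:**
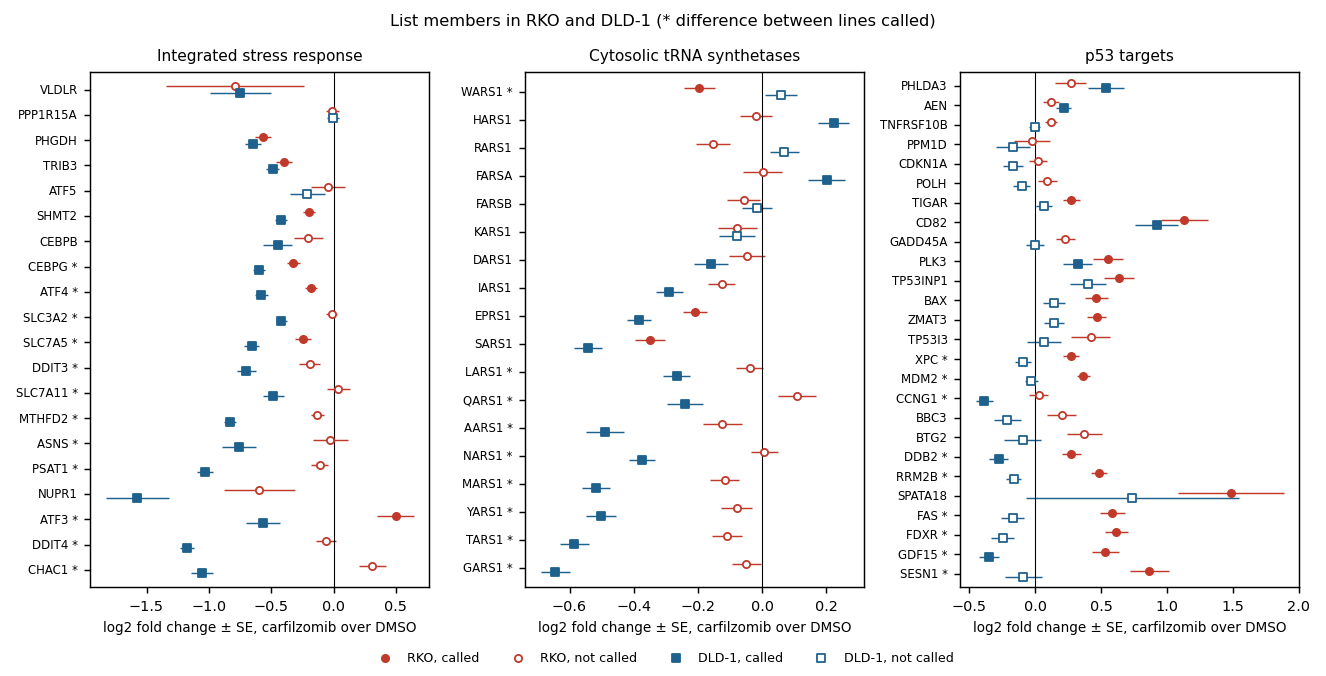
Log2 fold change after carfilzomib with its standard error in RKO (circles) and DLD-1 (squares) for the tested genes of 3 lists, filled where called, with an asterisk where the difference between lines was called. In the left and middle panels most squares lie below 0 with the circles nearer to 0, and in the right panel most circles lie above 0 with the squares near 0.

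Sequences of the ATF4 element are shown for CHAC1, ATF3 and AARS1, whose responses differed between the lines. The motif TGATGNAA, on either strand, was found in 4 of 17 promoters of the stress response list (23.5%), in 5 of 15 of the synthetases (33.3%) and in 3.67% of all promoters. Capitals mark the match, read along the gene: CHAC1 at chr15:40953246-40953285, plus strand, ATF3 at chr1:212565200-212565239, plus strand, and AARS1 at chr16:70289670-70289709, minus strand.
CHAC1: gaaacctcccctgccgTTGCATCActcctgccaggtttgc
ATF3: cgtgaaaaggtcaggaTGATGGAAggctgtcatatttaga
AARS1: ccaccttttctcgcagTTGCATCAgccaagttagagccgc
AARS1, the alanine enzyme, had a log2 response of -0.12 in RKO and -0.49 in DLD-1. The matches are descriptions of these windows and say nothing about binding in these cells. The CHAC1 window lies before the RefSeq start and inside the longer gene span that GENCODE gives.

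Genes of the endoplasmic reticulum stress response split both ways. Of 20 tested, edgeR called none in RKO, where 5 had an unadjusted p under 0.05, while 3 rose and 5 fell in DLD-1. Over all genes tested 4.05% rose and 5.23% fell in RKO, and 7.73% rose and 11% fell in DLD-1. XBP1, a transcription factor of this response, had -0.59 in DLD-1 and -0.14 in RKO, and HERPUD1, a component of the degradation machinery, had -0.49 and 0.17. With the sensor ERN1 (-0.36 and 0.04) they made up the 3 called differences above 0, and the ERN1 call was lost without any of 9 libraries. The chaperone HSP90B1, the isomerase PDIA3 and the translocon subunit SEC61B had differences of -0.30, -0.25 and -0.45. The PDIA3 call was lost without carfilzomib replicate 3 of DLD-1 (-0.23, adjusted p = 0.0536). HSPA5, the main chaperone of this compartment, was called in neither line (-0.01 in RKO, -0.11 in DLD-1).

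Many p53 targets rose in RKO. Of 26 tested, 15 rose and none fell in RKO (median 0.37), while in DLD-1 4 rose and 3 fell (median -0.06). The difference was called above 0 for 9 and below 0 for none (median 0.34), and 24 of the 26 differences were above 0. The summed level was 1448 to 1511 CPM in control RKO and 1784 to 1873 CPM after the drug. In DLD-1 it was 1408 to 1449 CPM and 1285 to 1309 CPM. Leaving out each library gave 12 to 16 genes that rose in RKO and 7 to 10 called differences, none of which passed against the 1.5-fold null. Without carfilzomib replicate 3 of DLD-1 the genes that rose and fell there numbered 2 and 2.

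GDF15, a secreted stress cytokine (ENSG00000130513, chr19:18374731-18389176, plus strand, GRCh38), rose in RKO from 26.7, 20.9 and 26.2 CPM to 34.2, 35.3 and 37.5 CPM. In DLD-1 GDF15 fell from 210.4, 194 and 179.6 CPM to 144, 146 and 169 CPM. The groups did not overlap in either line, and the difference was 0.88 (SE 0.13, adjusted p = 0.00061). Both single-line calls held without each of the 12 libraries.

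FDXR, a mitochondrial electron carrier reductase, rose in RKO from 28.2, 27.5 and 25.9 CPM to 41.8, 39.7 and 43.3 CPM. In DLD-1 it went from 26.7, 25.7 and 21.8 CPM to 22.8, 19.6 and 20.2 CPM, which did not pass the test (log2 fold change -0.25, adjusted p = 0.061). FAS, a death receptor, had 0.59 in RKO and -0.17 in DLD-1, and RRM2B, a ribonucleotide reductase subunit used in DNA repair, had 0.49 and -0.17. MDM2, a ubiquitin ligase, went from 282, 299 and 289.6 CPM to 374, 363 and 384 CPM in RKO and had a response of -0.03 in DLD-1. SESN1, a growth inhibitor, had the largest difference of the list (0.96, from 0.87 in RKO and -0.09 in DLD-1). DDB2, XPC and CCNG1 completed the 9. The XPC and CCNG1 calls were each lost without 2 of the 12 libraries. CDKN1A, the cell cycle inhibitor, was called in neither line (0.02 in RKO and -0.17 in DLD-1).

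Of 20 tested antioxidant and iron genes controlled by NRF2, 11 rose and 1 fell in DLD-1 (median 0.33), and 5 rose in RKO (median 0.05). Called differences numbered 7 below 0 and 2 above 0. FTL, the light chain of the iron store ferritin, had the largest one. Its level in RKO was 887, 1037 and 1012 CPM with DMSO and 1052, 1143 and 1169 CPM with carfilzomib, which did not pass the test (log2 fold change 0.20). In DLD-1 FTL rose from 572, 574 and 534 CPM to 1628, 1353 and 1745 CPM, by 1.49. The difference was -1.30 (SE 0.11, adjusted p = 8.8e-06).

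BLVRB, an enzyme of haem breakdown, rose in both lines, by 0.48 in RKO and by 1.40 in DLD-1, and the difference of -0.91 was called (adjusted p = 8.8e-06). GCLM, the regulatory subunit of glutathione synthesis, rose by 0.88 in DLD-1 with 0.07 in RKO. GSR, TALDO1, SRXN1 and PRDX1 were the other 4 below 0, and the PRDX1 call was lost without any of 10 libraries. NQO1, a quinone reductase, rose by 0.37 in RKO with 0.04 in DLD-1, and SLC7A11, the cystine importer, had 0.04 in RKO and fell by 0.48 in DLD-1. These were the 2 differences above 0. The NQO1 call was lost without carfilzomib replicate 3 of RKO (0.29, adjusted p = 0.0525) and the SLC7A11 call without any of 6 libraries. HMOX1, the inducible haem oxygenase, rose in RKO (0.66) and was not called in DLD-1 (0.18), and the difference between them did not pass the test (adjusted p = 0.095). The 5 RKO calls became 3 without any 1 of the RKO libraries other than DMSO replicate 3, and without DMSO replicate 2 or carfilzomib replicate 1 of DLD-1.

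Many chaperones fell in each line, and few rose. Of 23 tested, 13 fell and none rose in RKO (median -0.35), and 11 fell and 2 rose in DLD-1 (median -0.22). The difference was called below 0 for HSPA8, HSP90AA1 and DNAJA1 and above 0 for HSPA4L, whose call was lost without any of 11 libraries. HSPA8 is the constitutive member of the HSP70 family (ENSG00000109971, chr11:123057489-123063230, minus strand, GRCh38). It fell in RKO from 1087, 1260.3 and 1275 CPM to 513, 498 and 463 CPM, and in DLD-1 from 2248, 2194 and 2202 CPM to 1588, 1508 and 1396 CPM. The log2 fold changes were -1.30 and -0.56, and the difference was -0.73 (SE 0.09, adjusted p = 0.00012).

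HSP90AA1, the inducible HSP90, fell in RKO from 2701, 2323 and 2587 CPM to 1629, 1714 and 1587 CPM. In DLD-1 it stood at 1271, 1260.2 and 1374 CPM with DMSO and 1251, 1202 and 1432 CPM with carfilzomib, and the difference was -0.62 (adjusted p = 0.00085). DNAJA1, a partner of HSP70, fell by 0.71 in RKO and 0.36 in DLD-1. HSPH1 fell by 0.71 and 0.50, and DNAJB1 by 0.59 and 0.42. BAG3, which hands HSP70 clients to autophagy, was called in neither (-0.10 and -0.06). The 2 that rose in DLD-1 were low: HSPA6 went from a mean of 1.74 to 7.86 CPM and CRYAB from 0.143 to 0.663 CPM. The inducible HSPA1A and HSPA1B are spread over 8 rows that share identifiers. Their sum had a log2 fold change of -0.41 in RKO (adjusted p = 0.46) and -0.36 in DLD-1 (adjusted p = 0.38), and is uncertain. All 8 chaperonin TRiC subunits were tested, of which 7 fell in RKO and 6 in DLD-1, and edgeR called no difference at an adjusted p under 0.05, with 3 at an unadjusted p under 0.05.

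Heat shock elements in the HSPA8 promoter are shown because HSPA8 fell in both lines. The motif GAANNTTC reads the same on both strands and was found in 6 of 20 chaperone promoters with an entry (30%), in none of the 28 proteasome promoters and in 6.87% of all promoters. HSPA8 holds 2 matches, the upstream one at chr11:123062343-123062382 and the start-proximal one at chr11:123062163-123062202, both written along its minus strand with the match in capitals. Both lie before the RefSeq start and inside the longer gene span that GENCODE gives.
HSPA8 upstream: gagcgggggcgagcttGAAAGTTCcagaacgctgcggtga
HSPA8 proximal: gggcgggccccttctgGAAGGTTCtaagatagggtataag

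**Figure D4:**
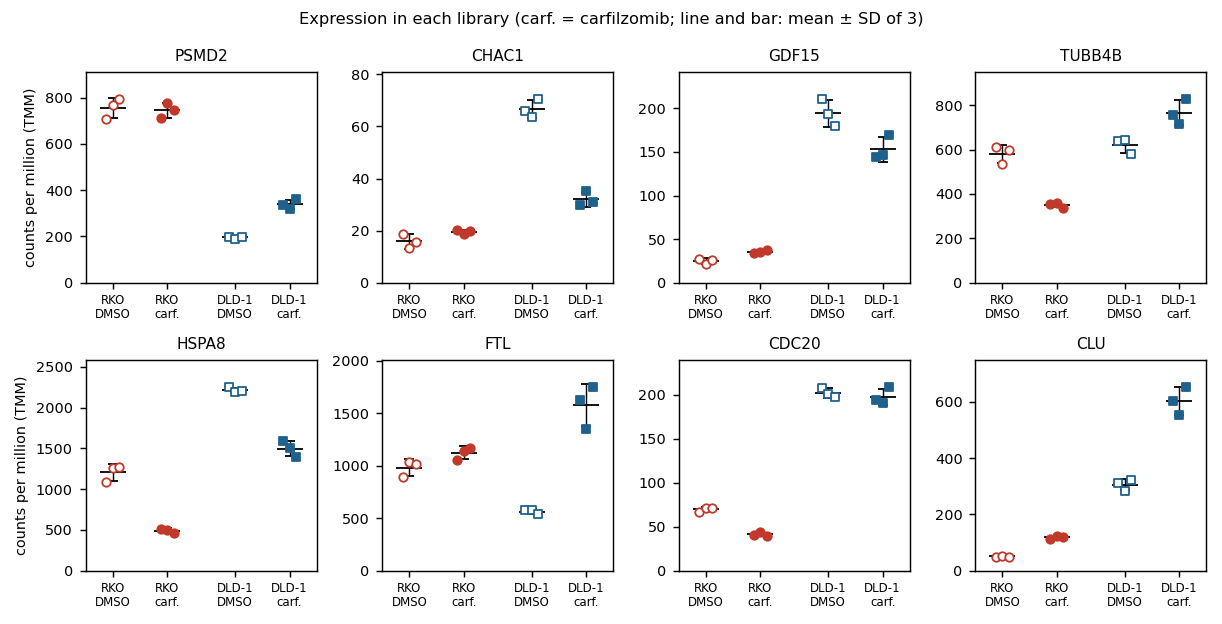
Level in CPM in each of the 12 libraries for 8 genes, with the mean and SD of 3 replicates per group, open symbols for DMSO and filled ones for carfilzomib, all axes starting at 0. PSMD2 and FTL rose in DLD-1, CHAC1 fell there, GDF15 and TUBB4B moved in opposite directions, HSPA8 fell in both lines, CDC20 fell in RKO, and CLU rose in both.

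Mitosis genes fell in both lines, and further in RKO. All 26 tested fell in RKO (median -0.78) and 24 fell in DLD-1 (median -0.43). All 26 differences were below 0 and 16 were called (median -0.32), with 13 to 18 called when each library was left out and none against the 1.5-fold null. In bulk samples fewer cells in mitosis and less RNA per cell cannot be told apart. CDC20, an activator of the ligase that ends mitosis, fell in RKO from 66.8, 70.9 and 70.8 CPM to 40.9, 43.9 and 39.7 CPM. In DLD-1 CDC20 stood at 208, 201 and 197 CPM with DMSO and 194, 190.1 and 208 CPM with carfilzomib. The groups overlapped there, and the difference was -0.71 (SE 0.07, adjusted p = 4.2e-05). CCNB1, the cyclin of mitotic entry, fell by 0.78 in RKO and by 0.16 in DLD-1. The kinase AURKA fell by 0.73 and 0.20, and the checkpoint kinase BUB1 by 0.77 and 0.31.

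The S phase lists fell in both lines, with few called differences. Of 26 DNA replication genes 24 fell in RKO (median -0.38) and 22 fell in DLD-1 (median -0.30). The difference was called for RRM2, a ribonucleotide reductase subunit (-0.38), and MCM10, a replication initiator (-0.24), and the MCM10 call was lost without any of 11 libraries. Differences below 0 were found for 19 of the 26 and above 0 for 7 (median -0.10), and DESeq2 called 6 below 0 and 1 above. Of 25 replication histone genes 23 fell in RKO and 23 in DLD-1, with medians of -0.81 and -0.84. edgeR called no histone difference at an adjusted p under 0.05, with 3 at an unadjusted p under 0.05 and 1 called by DESeq2, and the median difference was 0.02. Without DMSO replicate 3 of DLD-1 edgeR called 2 histone differences above 0. H2BC11 fell in RKO from 211, 181 and 229 CPM to 111, 117 and 109 CPM and in DLD-1 from 313, 324 and 341 CPM to 173, 185 and 171 CPM.

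In all, 197 genes were called higher in both lines (1.13%) and 530 were called lower in both (3.04%). The shared higher genes were 27.9% of those that rose in RKO and 14.6% of those that rose in DLD-1. The shared lower genes were 58.0% of those that fell in RKO and 27.6% of those that fell in DLD-1. Scaling by library totals gave 338 shared higher genes, and the count was 107 without carfilzomib replicate 3 of RKO. Of the shared genes, 22 higher and 57 lower also had a called difference in size.

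GPX3, a secreted glutathione peroxidase, rose in RKO from 4.25, 4.61 and 2.9 CPM to 11.5, 13 and 14.8 CPM and in DLD-1 from 6.72, 6.52 and 6.18 CPM to 27.1, 26.5 and 29.6 CPM. CLU, a secreted chaperone, rose in RKO from 49.4, 52.5 and 49.2 CPM to 113, 123 and 118 CPM and in DLD-1 from 310.5, 284 and 323 CPM to 605, 555 and 652 CPM. The p53 target CD82, a membrane protein that restrains motility, rose by 1.13 in RKO and 0.92 in DLD-1, and the spectrin SPTBN4 by 1.69 and 1.26. In none of these did treated and control libraries overlap. Among shared lower genes FADS2, a fatty acid desaturase, fell by 0.84 in both lines, and the histones H2BC21, H2BC14, H4C2, H4C4 and H4C8 fell by 0.81 to 1.07.

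Genes called in opposite directions were few. Of 782 genes called in both lines, 727 went the same way and 55 (7.03%) opposite ways. Of these, 32 rose in RKO and fell in DLD-1 (0.183% of the genes tested) and 23 did the reverse (0.132%). The median log2 difference was 0.63 for the 32 and -0.55 for the 23. All 55 had a called difference, which follows in part from their choice by opposite calls in the same fit. Without each of the 12 libraries in turn 53 of them kept the called difference, and all 55 kept both signs. Calls in both lines were harder to keep, since 8 of the 55 held them without each library. The counts of 32 and 23 were lowest, at 13 and 12, without carfilzomib replicate 3 of RKO, and highest, at 37, without DMSO replicate 3 of DLD-1 and, at 28, without DMSO replicate 1 of RKO. They also dropped to 18 and 14 without DMSO replicate 3 of RKO, to 17 and 13 without carfilzomib replicate 1 of RKO, to 19 and 12 without carfilzomib replicate 3 of DLD-1 and to 21 and 15 without carfilzomib replicate 1 of DLD-1. The count of 32 dropped to 17 without carfilzomib replicate 2 of RKO and to 21 without DMSO replicate 2 of DLD-1.

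TUBB4B, a beta tubulin (ENSG00000188229, chr9:137241213-137243707, plus strand, GRCh38), fell in RKO from 610.4, 536 and 596 CPM to 356, 359 and 337 CPM. In DLD-1 TUBB4B rose from 638, 645 and 581 CPM to 758, 714 and 826 CPM. The control levels overlapped between the lines and the treated levels did not, and the difference was -1.03 (SE 0.09, adjusted p = 8.8e-06). F3, the tissue factor that starts blood clotting (ENSG00000117525, chr1:94529225-94541800, minus strand, GRCh38), fell in RKO from 6.13, 6.6 and 5.71 CPM to 2.8, 3.01 and 4.69 CPM. In DLD-1 F3 rose from 154, 159 and 169 CPM to 250.03, 245 and 269 CPM, and the difference was -1.45 (SE 0.18, adjusted p = 0.00015). ZNF143, a transcription factor, fell by 0.35 in RKO and rose by 0.34 in DLD-1. DYNC2H1, the motor of transport inside cilia, rose by 0.30 in RKO and fell by 0.33 in DLD-1. The calls of these 4 genes in both lines held without each of the 12 libraries.

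CEMIP, a protein of hyaluronan breakdown (ENSG00000103888, chr15:80779343-80951776, plus strand, GRCh38), had the largest difference of those named that rose in RKO. It went from 3.54, 3.4 and 3.48 CPM to 4.99, 5.59 and 5.81 CPM in RKO and from 186, 164 and 157 CPM to 92.2, 94.6 and 84.2 CPM in DLD-1. The difference was 1.56 (SE 0.16, adjusted p = 4.2e-05), and the RKO call was lost without carfilzomib replicate 3 of RKO (log2 fold change 0.60, adjusted p = 0.059). NDRG1, a stress and hypoxia gene, went from 55.1, 46.4 and 55 CPM to 41, 41.3 and 41.4 CPM in RKO and from 33.9, 32.7 and 36.3 CPM to 65.9, 55.4 and 69.1 CPM in DLD-1. Its difference was -1.23 (SE 0.12, adjusted p = 2.5e-05), and the RKO call was lost without any 1 of 5 of the 6 RKO libraries, all but DMSO replicate 2. ATF3, a stress-induced repressor, rose in RKO from 8.65, 5.53 and 8.11 CPM to 10.6, 10.7 and 10.3 CPM and fell in DLD-1 from 14.2, 13.7 and 14 CPM to 8.96, 9.85 and 9.61 CPM. Its difference of 1.06 (adjusted p = 0.0050) held without each library. The RKO call of ATF3 was lost without any of 11 libraries (log2 fold change 0.33 to 0.57, adjusted p 0.0534 to 0.14).

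Other named genes of this kind had smaller responses. ERMAP, CES3, RUNX2 and LAMA1 rose in RKO by 0.30 to 0.38 and fell in DLD-1 by 0.37 to 0.53. OSER1, HSPB11, LGALS1 and P4HA2 fell in RKO by 0.25 to 0.34 and rose in DLD-1 by 0.29 to 0.49. Each of these 8 lost its call in at least 1 line without at least 2 of the 12 libraries. In RKO the calls of ERMAP, HSPB11 and LAMA1 were lost without 5, 5 and 6 of the RKO libraries, those of CES3 and RUNX2 without 8 of the 12 libraries each, that of OSER1 without 3 and that of P4HA2 without 2. In DLD-1 the calls of CES3, LAMA1 and LGALS1 were lost without 5, 4 and 7 libraries. The difference itself was lost for CES3 without DMSO replicate 1 or carfilzomib replicate 1 of DLD-1 (adjusted p 0.0581 and 0.0589) and for LAMA1 without DMSO replicate 1 of DLD-1 (0.66, adjusted p = 0.0505).

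Of 22 lysosomal genes, 8 rose in RKO, 8 rose in DLD-1 and none was called lower in either. The other 14 in each line did not pass the test. Over all genes tested 4.05% rose and 5.23% fell in RKO, and 7.73% rose and 11% fell in DLD-1. In every treated library 11 members in RKO and 13 in DLD-1 lay above DMSO, while 1 in RKO and 3 in DLD-1 lay below. The share of such genes among all genes tested was not computed, so these counts are descriptions. Differences below 0 were called for CTSL, PSAP and GLA. CTSL, a cysteine protease, stood in RKO at 172, 177 and 177 CPM with DMSO and 159, 160.3 and 159 CPM with carfilzomib, and rose in DLD-1 from 65.1, 62.6 and 67.7 CPM to 105, 101 and 107 CPM. The difference was -0.82 (SE 0.06, adjusted p = 2.4e-06). PSAP, the precursor of sphingolipid activators, rose by 0.19 in RKO and 0.78 in DLD-1, and the galactosidase GLA by 0.98 in DLD-1 with 0.22 in RKO.

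Of 22 genes induced by growth signals and AP-1, 6 rose and 2 fell in DLD-1 and 2 fell in RKO. Over all genes tested 7.73% rose and 11% fell in DLD-1, and 5.23% fell in RKO. A difference below 0 was called for 2.96% of all genes. The counts of the list were not tested against these shares, so they are descriptions and do not set the list apart. A lower response in RKO was called for DUSP5, FOSL1, JUN and PHLDA1, and that of JUN was lost without any of 10 libraries. DUSP5, a phosphatase that inactivates ERK, stood between 106 and 118 CPM in all RKO libraries and rose in DLD-1 from 144, 143 and 155 CPM to 228, 231 and 274 CPM. Of 14 NF-kB targets 7 rose in RKO and 5 in DLD-1, and none fell. Over all genes tested 4.05% rose in RKO and 7.73% in DLD-1. BIRC3, an inhibitor of cell death, rose in RKO from 9.12, 9.86 and 11.7 CPM to 23.6, 24.5 and 26.3 CPM and in DLD-1 from 28.6, 25.9 and 31.2 CPM to 42.6, 36.4 and 44 CPM. Its difference was 0.74 (SE 0.15, adjusted p = 0.0075). SOD2 (0.32) and TNFAIP2 (-0.50) were the others called, and their calls were lost without 2 and 10 of the 12 libraries.

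Over all genes tested, 2.96% had a called difference below 0 and 3.04% one above. Of 21 hypoxia and glycolysis genes, 5 had a called difference below 0 and 1 above. VEGFA, the vessel growth factor, had -0.06 in RKO and fell by 0.63 in DLD-1. NDRG1, ENO2 (-0.06 and 0.71), PGK1 (-0.18 and 0.28), PFKFB3 and HK2 were those below 0, and the HK2 call was lost without any of 8 libraries. Of 22 cholesterol genes, 3 had a called difference below 0, among them the synthesis enzymes IDI1 (-0.36) and HMGCS1 (-0.40). Of 31 ribosomal protein genes 18 fell in DLD-1 and 3 in RKO, where 11% and 5.23% of all genes tested fell. Their difference was called for RPLP0, RPS2 and RPS3 (0.32, 0.24 and 0.23), and lost without any of 7, 7 and 10 libraries.

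The 20 largest differences, 10 in each direction, mostly came from genes with few reads. In 12 of them the highest count of the line with the larger response was under 20, and in 5 of them 1 group of that line had no counts, so their fitted folds are not given. ATG9B, an autophagy membrane protein, was better counted. It stood at 1.69 to 2.75 CPM with DMSO and 2.78 to 3.58 CPM with carfilzomib in RKO. In DLD-1 ATG9B rose from 0.235, 0.336 and 0.198 CPM to 11, 8.38 and 11.3 CPM, and the difference was -4.87 (SE 0.36, adjusted p = 2.4e-06). ITGAX, an integrin subunit, stood at 88.2, 85.1 and 89.8 CPM in control RKO and at 101, 100.3 and 98.8 CPM after the drug, and rose in DLD-1 from 0.62, 0.706 and 0.727 CPM to 4.71, 4.32 and 6.17 CPM. CD68 rose in both lines, by 0.29 in RKO and by 1.92 in DLD-1, where its control level was 2.63 to 2.89 CPM. Another gene on the same strand overlaps 81.7% of CD68, so its counts are uncertain.

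The responses were also set beside those of the other 6 lines. Since the 530 and 516 genes were called on the RKO and DLD-1 responses themselves, their shares at the extremes follow in part from that choice. For the 530 genes above 0, the RKO response was above that of all other 6 lines in 36.4% and the DLD-1 response below all 6 in 13.8%, against 12.9% and 8.0% over all genes. For the 516 below 0, RKO was below all 6 in 39.1% and DLD-1 above all 6 in 15.5%, against 10.5% and 9.62% over all genes. Over all genes RKO lay outside the range of the other 6 in 23.3% and DLD-1 in 17.6%, with the shallower libraries in RKO. The median response of the proteasome subunits in the other lines ran from 0.22 in H-929 to 1.28 in CAPAN-2, all above the -0.02 of RKO. The p53 targets had a median of 0.36 in H-929 and between -0.12 and 0.04 in the other 5. The chaperones had medians from 0.07 in H-23 to 0.73 in RPMI, above those of both colon lines. The medians of the other 6 lines come from a fit of all 48 libraries, and those of RKO and DLD-1 from the fit of their 12. These shares and medians are descriptions with no test.

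**Figure D5:**
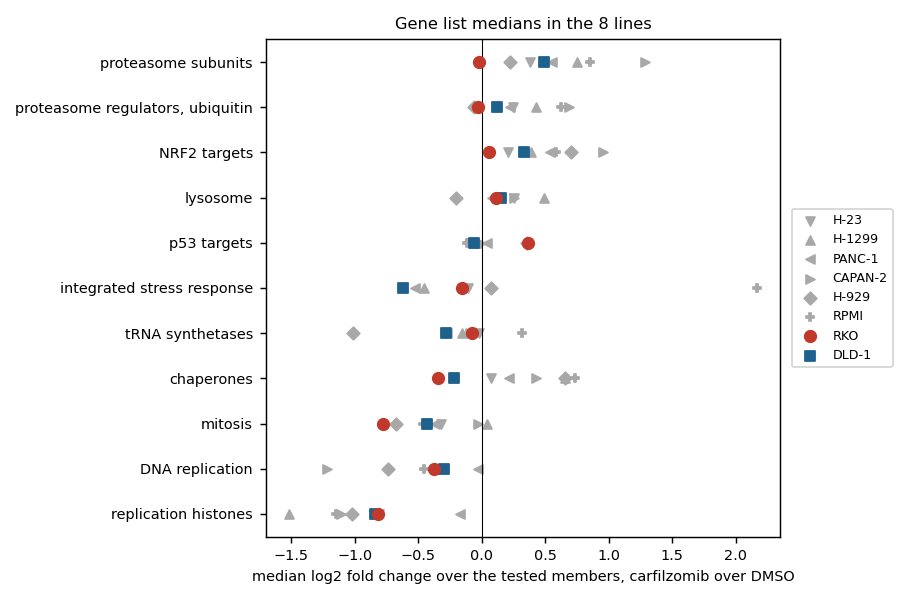
Median log2 fold change after carfilzomib over the tested genes of 11 lists, for RKO (red circle), DLD-1 (blue square) and the other 6 lines (grey). RKO lies lowest for proteasome subunits (-0.02), NRF2 targets (0.05), chaperones (-0.35) and mitosis (-0.78), and DLD-1 lowest for the integrated stress response (-0.62). For p53 targets RKO (0.37) and H-929 (0.36) lie highest. The RKO and DLD-1 medians come from the fit of their 12 libraries, and the others from a fit of all 48.

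Compared with the other pairs of lines of 1 tumour type, the colon pair had fewer called differences. The same contrast called 42.5% of genes for the lung lines H-1299 and H-23, 38.2% for the pancreatic lines CAPAN-2 and PANC-1 and 38.6% for the myeloma lines H-929 and RPMI, against 6.0% here. Among genes called in both lines of a pair, the opposite share was 19.4%, 22.2% and 19.6%, against 7.03%. Over all genes tested in each pair, the Pearson r of the responses was lowest in the colon pair, at 0.05 against 0.20, 0.18 and 0.33. In the colon pair it was 0.13 over genes with a mean count of 50 or more, a value not computed for the other pairs. Depth differed between the pairs, and these values were not tested against each other.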

How the data were processed

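The authors deposited 1 table of raw counts per gene, and its values were used as counts with no further change. Per the submitters' processing notes, bcl2fastq 2.19, FastQC, Trimmomatic, HISAT2, DESeq2 and the build hg38 were used, and per the labels a stranded kit for total RNA was used, while the design text speaks of mRNA. The counter and its use of strand are not given in the sources used here. Of 33892 rows, 4803 share an identifier with another and were tested as deposited, but not named singly.

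Libraries were grouped by the labels. The 12 RKO and DLD-1 libraries were fitted with 1 mean per group in edgeR 4.0.16 (R 4.3.3, limma 3.58.1), with TMM scaling, filterByExpr, the quasi-likelihood F test and Benjamini-Hochberg adjustment over all 17445 genes. The script was tested on simulated data. Replicates of a group differed beyond Poisson error (chi-square over its degrees of freedom 4.1 to 14). Each SE is the absolute log2 value divided by the square root of its F statistic. It rests on a spread between replicates that edgeR estimates over all 4 groups with information shared across genes. Gene positions are from GENCODE release 29.

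The members and lists were chosen with earlier results of these data known. Genes were named by size of difference (10 per direction), of opposite or shared responses (8 per class, with a mean of at least 50 counts) or within a list (4 each), plus well-known genes. PSMB4, PSMC3, PSMD3, PSMD5, PSMD9, PSMD10, ADRM1, POMP, NSFL1C, PSME4, PSMG3, UBB, ATF4, PHGDH, SESN1, AARS1, HSPA6, CRYAB and other members of counts of 9 or fewer were chosen after their values were seen. Some single-gene results are not reported here.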

Additional observations from a re-analysis of the deposited data

Results flagged for a closer look

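The response to carfilzomib differed between the lines by a test of the difference itself, with edgeR and Benjamini-Hochberg adjustment, for 530 genes higher and 516 genes lower in RKO than in DLD-1. Of the 55 genes called in opposite directions, 17 are given here, of which 16 were chosen by the size of their smaller response with a mean of at least 50 counts, and PSMD12 as a named gene. The log2 differences of those higher in RKO were 1.56 for CEMIP, 1.06 for ATF3, 0.88 for CES3, 0.88 for GDF15, 0.79 for ERMAP, 0.78 for LAMA1, 0.68 for RUNX2 and 0.64 for DYNC2H1. Those lower in RKO were -1.45 for F3, -1.23 for NDRG1, -1.03 for TUBB4B, -0.83 for HSPB11, -0.78 for OSER1, -0.69 for ZNF143, -0.57 for LGALS1, -0.55 for P4HA2 and -0.42 for PSMD12. Among all 55 the largest absolute differences were 1.59 for those higher in RKO and 3.47 for those lower.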

How the results depend on the processing

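Of the recomputed differences of named genes, 2452 kept their direction and side of the threshold, 325 kept the direction and lost the call, and none reversed. Without each library in turn the counts ran as follows: 266 to 502 differences above 0 and 330 to 490 below, 355 to 816 higher and 511 to 1040 lower in RKO, 914 to 1406 higher and 1290 to 2045 lower in DLD-1, 107 to 191 higher and 358 to 540 lower in both, 13 to 37 higher in RKO and lower in DLD-1, and 12 to 28 the reverse. Against a null change of 1.5-fold there were 6 differences above 0 and 19 below, 8 and 13 calls in RKO, 76 and 33 in DLD-1, 2 higher in both, and 0 lower in both, 0 higher in RKO and lower in DLD-1 and 0 the reverse. The fit with the replicate number as a block within each line gave 314 differences above 0 and 20 genes higher in RKO and lower in DLD-1, and kept 64.2% of the called differences. Deviations of same-numbered samples from their group means had correlations of 0.02 to 0.05 in RKO and -0.11 to 0.01 in DLD-1. Differently numbered samples were not set beside them, so these values cannot decide whether the numbers pair the samples. DESeq2 called 871 differences below 0 and 69 genes lower in RKO and higher in DLD-1, and held 96.7% of the edgeR calls. Library totals gave 338 genes higher in both lines. With no filter the opposite counts were 19 and 50, with all 48 libraries in the fit the first was 16, and without rows that share an identifier, an alternative chosen after seeing the data, the second was 38. The cause was not tested. Responses near 0 that changed sign were uncalled throughout. Without each library in turn they ran in RKO from -0.047 to 0.013 for HSPA5 (0.00065 without carfilzomib replicate 1), from -0.031 to 0.10 for CDKN1A (-0.0050 without carfilzomib replicate 3) and from -0.0012 to 0.10 for PSMD5. In DLD-1 they ran from -0.21 to 0.018 for HSPA5, from -0.10 to 0.014 for PSMD5, from -0.088 to 0.021 for PSMD10 and from -0.13 to 0.0010 for BAG3. With library totals HSPA5 and NFE2L1 in RKO had 0.031 and 0.0073 and PSMD10 in DLD-1 had 0.0094, thinning gave PSMD10 0.0091 in DLD-1, and no filter gave CDKN1A -0.0059 in RKO. RKO has the shallower libraries, and thinning all to the lowest total called 889 differences.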
